A study of Drosophila melanogaster with 6 samples.

Results

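Touch, stretch and harm are sensed in the fly larval body wall by ion channels of a few families, and the 10 genes named here encode such channels or their subunits. Piezo is a large mechanically gated cation channel that acts in larval mechanical nociception. The genes ppk (pickpocket), ppk26 and rpk (ripped pocket) belong to the DEG/ENaC family of sodium channels, and ppk and ppk26 mark and serve the class IV dendritic arborization neurons, which are nociceptors. The genes pain (painless), TrpA1, nompC, iav (inactive) and nan (nanchung) belong to the TRP family. NompC is a touch channel of class III neurons and chordotonal organs, Iav and Nan act together in chordotonal neurons, and Painless and TrpA1 act in thermal and chemical nociception. Tmc encodes a transmembrane channel-like protein with roles in larval proprioception. The genes were taken by name, and all 10 were found among the 14240 genes of the table, with 33 of its 30828 transcripts.

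RNA was captured from carcasses of larvae labelled early L3 in 3 sample types with 2 libraries each, and all 3 sample types carried UAS-CD:UPRT. EC-RNA came from larvae in which 109(2)80-Gal4 drove that construct and which ate 5-ethynylcytosine (5EC) for 12 hours, an analog that only cells with the CD:UPRT enzyme should convert into a tag for new RNA. This Gal4 line drives expression in multidendritic (md) neurons and also in neurons of the central nervous system, which the study removed by dissection. Ref-RNA came from UAS-CD:UPRT larvae without Gal4, fed 5-ethynyluridine (5EUd) for 12 hours, so that all carcass cells were tagged. Mock-RNA came from UAS-CD:UPRT larvae fed neither analog, and shows what the beads capture without a tag. Each library pools carcasses of several larvae, and the study prepared its biological replicates independently.

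Values are TPM, a unit that accounts for the length of a transcript, so levels may be compared between genes. A transcript with no abundance is blank in the table and was read as 0, and such a gene is described as listed at 0, since a blank may be an absent or a missed transcript. The study's read numbers fell from the 5EUd to the 5EC and then the mock libraries. Depth cannot be read from TPM, so the 2 values of each sample type are the only guide to the error of a value. Where both are 0, they give no measure of it. A test then rests on the spread of the other sample type and of other genes. The 5EUd libraries listed 9942 and 10369 genes above 0, the 5EC libraries 4761 and 5016, and the mock libraries 2178 and 1812. Levels above 0 but below 1 TPM were given for 2400 and 2466 genes in the 5EC libraries and for 10 and 3 genes in the mock libraries, so a level below 1 TPM could be read in EC-RNA but hardly in mock-RNA. The label of the 5EC libraries was checked against 9 genes known from md neurons (ct, kn, ab, ppk, ppk26, Poxm, pdm3, pdm2 and nub). Of these, 2 and 4 were above 0 in the 5EC libraries, where 33.4% and 35.2% of all genes were. The 9 genes summed to 1.66 and 99.2 TPM in EC-RNA, against 102 and 84.7 TPM in ref-RNA and 5.71 and 20.9 TPM in mock-RNA. Nearly all of the sum in 5EC replicate 2 came from ab at 49.8 TPM and ct at 45.1 TPM. The genes ppk26, Poxm, pdm3, pdm2 and nub were listed at 0 in both 5EC libraries. Since ppk and ppk26 are also channel members, the check is not independent of the channel values. The study states that larval muscle transcribes Poxm too. In such bulk samples, fewer cells of a type and less RNA per cell cannot be told apart.

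In ref-RNA, 8 of the 10 channel genes lay below the level of pain, and Piezo stood far above the rest. Piezo was at 58.4 and 55.4 TPM, and 89.2% of all genes had a mean at or below its mean of 56.9 TPM. The gene pain followed at 11.3 and 10.3 TPM, ppk at 6.79 and 4.80 TPM, ppk26 at 7.67 and 1.97 TPM and rpk at 0 and 2.06 TPM. The gene nompC was at 1.01 and 0.760 TPM, Tmc at 0.487 and 0.795 TPM, TrpA1 at 0.664 and 0 TPM, and iav at 0 and 0.532 TPM. The gene nan was listed at 0 in all 6 libraries. Piezo and pain did not overlap with each other or with the genes below them, whereas each neighbouring pair from ppk down to iav overlapped in its replicate values. The 5EUd replicates lay within 1.09-fold of each other for Piezo and pain and 3.89-fold apart for ppk26. Piezo alone made up 67.7% and 72.3% of the summed level of the 10 genes.

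**Figure D1:**
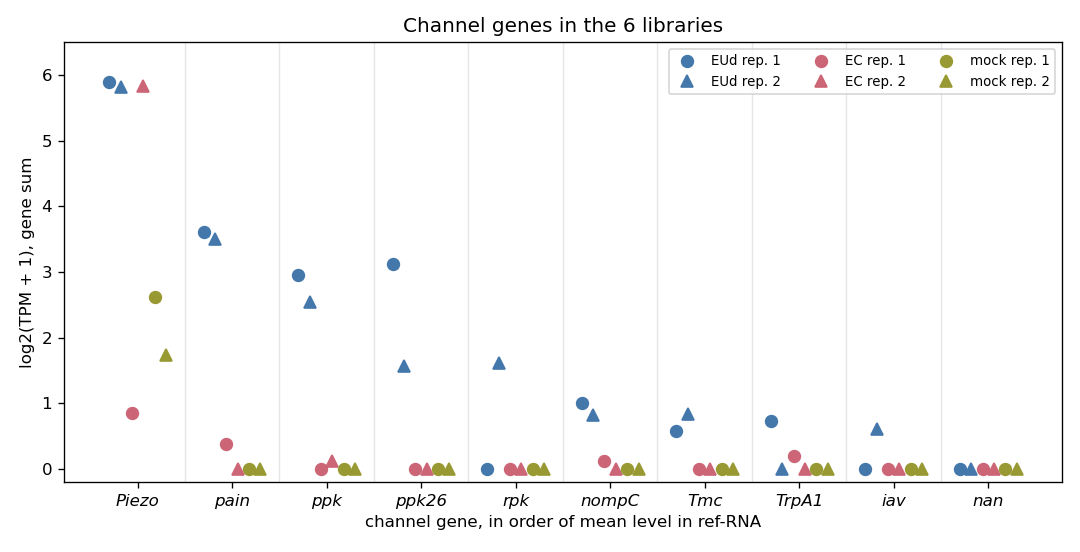
Level of each channel gene, summed over its transcripts, in each of the 6 libraries, on the log2(TPM + 1) scale (circles, replicate 1; triangles, replicate 2; blue, 5EUd; red, 5EC; olive, mock). Piezo at 55.9 TPM in 5EC replicate 2 is the only 5EC value of at least 1 TPM, and Piezo is the only gene above 0 in mock-RNA.

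In EC-RNA nearly all of these genes were at or near 0. Of the 10, 4 were above 0 in 5EC replicate 1 and 2 in replicate 2, and 0 and 1 reached 1 TPM. The genes ppk26, rpk, iav, nan and Tmc were listed at 0 in both 5EC libraries. In mock-RNA only Piezo was above 0. Without Piezo, the summed level of the other 9 genes was 27.9 and 21.3 TPM in ref-RNA, 0.547 and 0.0910 TPM in EC-RNA, and 0 in both mock libraries. Genes of like level in ref-RNA were also thinned out in EC-RNA. Of the 4266 genes with a mean from 1 to 10 TPM in ref-RNA, the range that holds ppk, ppk26 and rpk, 4.9% and 7.7% reached 1 TPM in the 5EC libraries and 6.3% and 5.8% in the mock libraries, whereas 20.1% and 22.6% were above 0 in the 5EC libraries and 6.4% and 5.8% in the mock libraries. For the 4530 genes from 10 to 100 TPM, the range of Piezo and pain, the shares that reached 1 TPM were 27.3% and 30.4% in EC-RNA and 26.8% and 20.4% in mock-RNA, and the shares above 0 were 63.8% and 66.3% in EC-RNA and 26.9% and 20.4% in mock-RNA.

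Piezo (chromosome 2L, 8163073 to 8190137, plus strand, BDGP6.54) was the single channel gene with a substantial level in EC-RNA, and that level came from 1 library. It was at 0.806 TPM in 5EC replicate 1 and at 55.9 TPM in 5EC replicate 2, against 58.4 and 55.4 TPM in ref-RNA and 5.17 and 2.35 TPM in mock-RNA. The second 5EC value lay between the 2 ref-RNA values and the first lay below both mock values. The 5EC replicates were thus 69.3-fold apart, at 1.42% and 98.2% of the ref-RNA mean. On TPM + 1 the gap of Piezo was 31.5-fold. Gaps of more than 10-fold on that scale were common among genes of similar level. Among the 1509 genes with a mean from 30 to 80 TPM in ref-RNA, 33.9% had 5EC replicates more than 10-fold apart on TPM + 1, against 0.8% for the 5EUd replicates.

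Between EC-RNA and ref-RNA the log2 difference of Piezo was -2.51 (standard error 2.07, limma adjusted p = 0.406), close to the median of -2.59 for all 9064 genes tested. All differences are on the log2(TPM + 1) scale, which understates the change of low genes. The value rested on which 5EC library was kept. It was -0.03 without replicate 1 and -5.00 without replicate 2, where it was called (adjusted p = 0.000187), and adjusted p-values over its alternatives ran up to 0.952. With median-of-ratios scaling it was 0.20, in the opposite direction. Between EC-RNA and mock-RNA the log2 difference was 1.16 (standard error 2.59, adjusted p = 0.750), against a median of 1.91 for the 4096 genes tested. It was 3.65 without 5EC replicate 1, -1.33 without 5EC replicate 2 and -1.13 with quantile normalization. Piezo was lower in mock-RNA than in ref-RNA by a log2 difference of -3.67 (standard error 0.45, adjusted p = 0.00818), beside a median of -3.19 for the 9025 genes tested. That call ended when all 3 sample types shared a fit, with quantile normalization, with median-of-ratios scaling and without either 5EUd replicate, with adjusted p-values over its alternatives from 0.000195 to 0.885.

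Below the gene sum, the Piezo reads of different libraries were assigned to different transcripts. The table lists 11 Piezo transcripts, of which 9 were above 0 in some library. FBtr0335179 led in ref-RNA, at 36.6 and 54.8 TPM, or 62.8% and 98.9% of the gene. It fell to 0.403 and 1.93 TPM in EC-RNA and 0.0292 and 0.00207 TPM in mock-RNA. In 5EC replicate 2 the leader was FBtr0335183, at 52.0 TPM or 93.1% of the gene. This transcript was blank in 5EC replicate 1, and in ref-RNA its values were 0.0744 and 2.36e-08 TPM. In mock-RNA it held 5.11 and 2.34 TPM, which was 98.9% and 99.8% of the gene. The leading isoform was thus shared by 5EC replicate 2 and both mock libraries, as it was for 57.4% of 960 genes in mock replicate 1 and 59.6% of 829 genes in mock replicate 2. FBtr0335182, which has the same annotated length as FBtr0335179, had exactly the same TPM as FBtr0335179 in both 5EC and both mock libraries. In ref-RNA it was at 0.000214 TPM and blank.

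**Figure D2:**
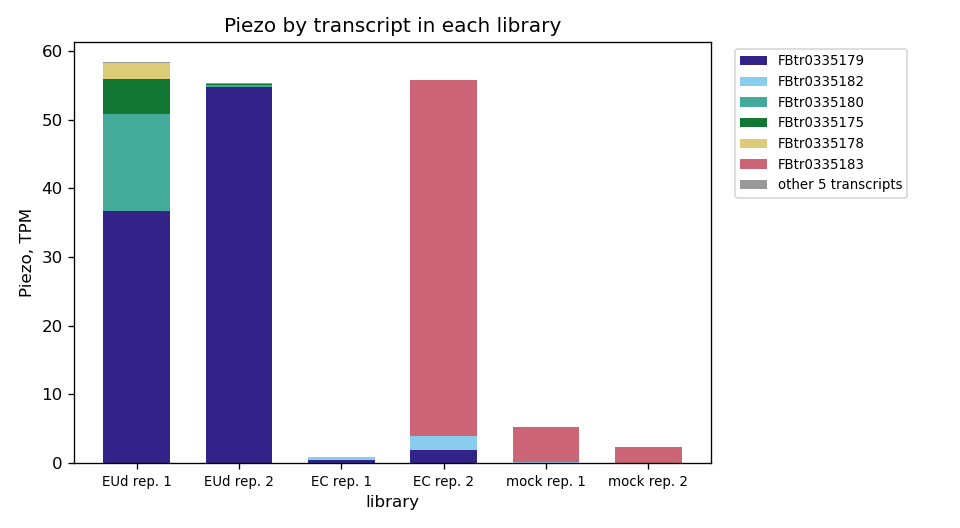
Piezo in each library, in TPM, split by transcript (bars start at 0). FBtr0335179 fills most of both 5EUd bars, whereas FBtr0335183, at 52.0, 5.11 and 2.34 TPM, fills most of 5EC replicate 2 and of both mock bars.

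The 5EUd replicates also divided the gene differently. In replicate 1, FBtr0335180 held 14.2 TPM, FBtr0335175 5.04 TPM and FBtr0335178 2.29 TPM, whereas in replicate 2 these were at 0.243, 0.235 and 1.77e-08 TPM. The sums of 58.4 and 55.4 TPM hid this shift. In the transcript test, FBtr0335179 was lower in EC-RNA by a log2 difference of -4.50 (standard error 0.66, limma adjusted p = 0.0160) and lower in mock-RNA by -5.50 (standard error 0.29, adjusted p = 0.00173). The EC-RNA call was lost without either 5EUd replicate (adjusted p = 0.0844 and 0.0985). FBtr0335183 was not called between EC-RNA and ref-RNA, at 2.81 (standard error 2.27, adjusted p = 0.436), though it was called without 5EC replicate 1, at 5.68 (adjusted p = 0.0346). Mock-RNA exceeded ref-RNA for it by 2.12 (standard error 0.43, adjusted p = 0.0308). That call was lost under 6 of the 7 alternatives that gave a value, with adjusted p-values from 0.00748 to 0.184. Of all transcripts tested, 0.592% were called higher and 44.5% lower in EC-RNA against ref-RNA, and 1.22% higher and 52.7% lower in mock-RNA. Between EC-RNA and mock-RNA, where FBtr0335183 was the only channel transcript tested, its log2 difference was 0.69 (standard error 2.72, adjusted p = 0.849) and limma called 0 transcripts, with 500 at an unadjusted p-value below 0.05.

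FBtr0335183 is the shortest Piezo transcript, with 27 exons, 9186 bases in all and 7599 coding bases, against 28 exons and 9240 bases for FBtr0335179. All 11 transcripts share 22 exons. FBtr0335183 lacks the 36-base exon at chr2L:8184815-8184850, which the other 10 carry, and the 267-base exon at chr2L:8184127-8184393, which 8 of the 11 carry. It alone has the 249-base form of the exon at chr2L:8182627-8182875, and 4 transcripts have a form of this exon that ends later, with 252 bases. Leadership by the shortest transcript was more frequent in the libraries that listed fewer genes. Among genes with several annotated lengths and at least 1 TPM, the shortest transcript led for 45.9% and 43.8% in ref-RNA, 55.0% and 60.0% in EC-RNA, and 69.9% and 68.6% in mock-RNA. The leading transcript of 5EC replicate 2 was the one that led in 5EUd replicate 1 for 52.2% of 1869 genes, and the 2 5EUd replicates shared their leader for 70.7% of 5159 genes. The part of depth and of the assignment of reads between isoforms in the Piezo result was not tested.

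**Figure D3:**
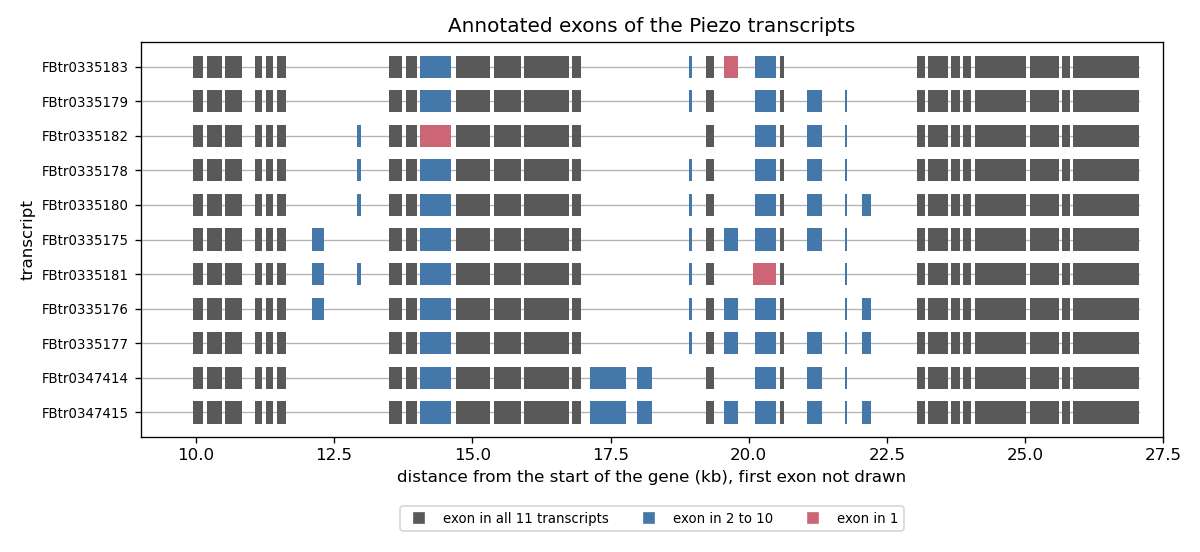
Annotated exons of the 11 Piezo transcripts, by distance from the start of the gene in kb (grey, exon in all 11; blue, in 2 to 10; red, in 1; the first exon is not drawn). FBtr0335183, in the top row, has its own 249-base exon and lacks the 267-base and 36-base exons to its right.

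By the distance between log2(TPM + 1) values over the 6 libraries, the genes most like Piezo were Bruce (distance 1.01), ab (1.18) and Dhc64C (1.22). Bruce, which encodes a large inhibitor of apoptosis, was at 62.1 and 56.6 TPM in ref-RNA, 0.518 and 76.2 TPM in EC-RNA, and 3.07 and 4.18 TPM in mock-RNA. The transcription factor gene ab (abrupt) was at 40.7 and 39.8 TPM in ref-RNA, 1.24 and 49.8 TPM in EC-RNA, and 5.71 and 5.18 TPM in mock-RNA. Dhc64C, the heavy chain of cytoplasmic dynein, was at 45.5 and 40.9, 0.713 and 51.1, and 5.00 and 6.04 TPM in the same order. All 3 were picked for their likeness to Piezo over these same values. That they too were low in 5EC replicate 1 and high in replicate 2 follows from this choice.

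The DEG/ENaC members, the sodium channels of class IV neurons among them, were at or near 0 in EC-RNA. The gene ppk (chromosome 2L, 14378218 to 14381172, minus strand), with a single transcript, was at 6.79 and 4.80 TPM in ref-RNA, listed at 0 in 5EC replicate 1, at 0.0910 TPM in 5EC replicate 2 and listed at 0 in mock-RNA. Both 5EC values lay below both ref-RNA values, and the higher was 1.57% of the ref-RNA mean. It was called lower in EC-RNA, with a log2 difference of -2.69 (standard error 0.26, limma adjusted p = 0.00424), where 56% of all genes tested were called lower. The call was lost with a pseudocount of 10 (-0.65) and with quantile normalization (-0.15), and adjusted p-values over its alternatives ran from 0.000817 to 0.914. It was also called lower in mock-RNA (adjusted p = 0.00291), where 67.1% of genes tested were, and lost that call under the same alternatives.

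The gene ppk26 (chromosome 3L, 7456149 to 7458608, plus strand), whose product works with Ppk in mechanical nociception, was at 7.67 and 1.97 TPM in ref-RNA and listed at 0 in the other 4 libraries. It was not called in EC-RNA (adjusted p = 0.0508) or in mock-RNA (adjusted p = 0.0520). In both comparisons it was called with a pseudocount of 0.1, with all 3 sample types in a fit and without 5EUd replicate 2. The gene rpk (chromosome 3R, 4645981 to 4648884, plus strand) was above 0 only in 5EUd replicate 2, at 2.06 TPM, nearly all of it from FBtr0078859, and its mean was too low for the test. It shares 1531 exon bases with an antisense RNA gene, asRNA:CR44155.

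Of the TRP members, pain was the highest. The gene pain (chromosome 2R, 24921505 to 24928275, minus strand) was at 11.3 and 10.3 TPM in ref-RNA, at 0.307 TPM and listed at 0 in EC-RNA, and listed at 0 in mock-RNA. Both 5EC values lay below both ref-RNA values. It was called lower in EC-RNA, with a log2 difference of -3.37 (standard error 0.23, limma adjusted p = 0.00287), and lower in mock-RNA (adjusted p = 0.000763), a call lost only with quantile normalization. The EC-RNA call was lost with median-of-ratios scaling, at -1.56 (adjusted p = 0.115), and with quantile normalization, at -0.48 (adjusted p = 0.760), the largest over its alternatives, which began at 0.000492. As for Piezo, the 5EUd replicates gave pain to different transcripts. FBtr0072417 was at 6.97 and 1.21 TPM, FBtr0333813 at 4.28 TPM and blank, and FBtr0333814 at 0.00243 and 9.13 TPM. None of the 3 was called in EC-RNA, and 5EC replicate 1 held only FBtr0333814. The gene shares 173 exon bases with NaCP60E on the other strand, which was at 3.47 and 3.58 TPM in ref-RNA, so reads from the shared bases cannot be told apart without strand.

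The other TRP genes were at the limit of what ref-RNA showed. TrpA1, on chromosome 3L from 8894404 to 8905200, showed 0.664 TPM in 5EUd replicate 1, from FBtr0331826 at 0.502 TPM and FBtr0331825 at 0.162 TPM, and 0.152 TPM in 5EC replicate 1, from the same transcripts at 0.114 and 0.0380 TPM. It was listed at 0 in the other 4 libraries. The gene nompC, on chromosome 2L from 5346200 to 5365760, had 1.01 and 0.760 TPM in ref-RNA, and in EC-RNA 0.0881 TPM and 0. FBtr0300012 held nearly all of it in 5EUd replicate 1 and FBtr0343224 in replicate 2. The chordotonal genes iav (chromosome X, 6813978 to 6818156) and nan (chromosome 3L, 14186249 to 14189648) were not detected in EC-RNA or mock-RNA, and the only value for the pair was 0.532 TPM for iav in 5EUd replicate 2. A list of 10 genes of chordotonal and ciliated cells, iav and nan among them, summed to 8.34 and 10.3 TPM in ref-RNA, 0.353 and 79.4 TPM in EC-RNA and 0 and 2135 TPM in mock-RNA. The highest value in EC-RNA came from Rfx at 79.4 TPM and that in mock-RNA from fd3F at 2135 TPM, both transcription factor genes.

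Tmc (chromosome 3L, 9597764 to 9614001, plus strand) was at 0.487 and 0.795 TPM in ref-RNA, nearly all of it from FBtr0347574, and listed at 0 in the other libraries. Its exons overlap an antisense RNA gene, asRNA:CR46246, by 321 bases. With no filter on low values, 9 of the 10 genes entered the test against ref-RNA, and ppk and pain were the only ones called in EC-RNA, while Piezo, ppk and pain were called in mock-RNA. Over all genes, 5219 of 11099 were then called in EC-RNA and 6179 of 11082 in mock-RNA. The nompC difference then had an adjusted p of 0.0423 in EC-RNA and 0.0221 in mock-RNA but was below 2-fold on the TPM + 1 scale.

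Of the 10 members, 4 (Piezo, ppk, ppk26 and pain) passed the filter of a mean of 1 TPM between EC-RNA and ref-RNA. None was called higher, as 0.199% of all genes tested were, and 2 were called lower, ppk and pain. The genes ppk, ppk26 and pain passed the filter only through their 5EUd values, so they could only lie lower in EC-RNA. The same holds for them between mock-RNA and ref-RNA. The genes called higher numbered 18, against 969 of 9367 without 5EC replicate 1, 695 of 9336 without 5EC replicate 2 and 113 with median-of-ratios scaling. Both 5EC values lay below both ref-RNA values for ppk, ppk26 and pain, an arrangement found for 69.1% of all genes tested. The median log2 difference of the 4 was -2.60, beside -2.59 for all genes. The values of ppk, ppk26 and pain depend on the pseudocount, since all were at or near 0 in EC-RNA. The median was -5.36 and -0.84 with pseudocounts of 0.1 and 10, -0.65 with quantile normalization and -1.34 with median-of-ratios scaling. Between mock-RNA and ref-RNA the same 4 were tested, 0 were called higher (0.731% of all genes tested), 3 were called lower and all 4 had both mock values below both ref-RNA values, as 86.3% of genes did. Their median was -3.15, beside -3.19, and since ppk, ppk26 and pain were at 0 in mock-RNA it follows their ref-RNA levels and the pseudocount, at -5.59 and -0.86 with pseudocounts of 0.1 and 10. These comparisons share the 5EUd libraries. Between EC-RNA and mock-RNA only Piezo passed the filter and it was not called. Its values overlapped between these sample types, whereas 33.9% of the genes tested had both 5EC values above both mock values. Over all genes in that comparison, 0.342% were called higher and 0.0244% lower in EC-RNA, 14 and 1 genes, and with quantile normalization 21 and 17.

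**Figure D4:**
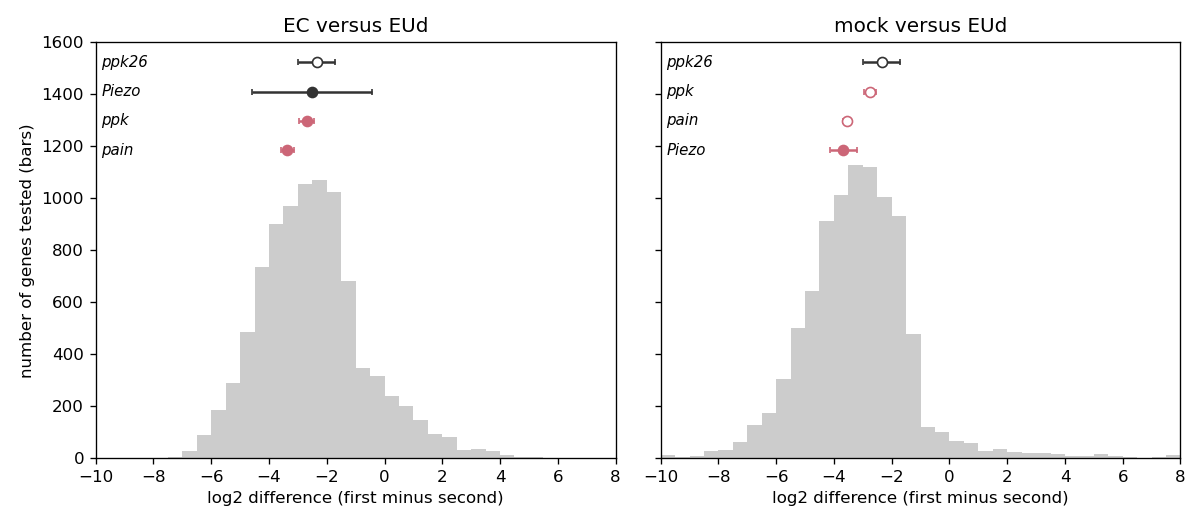
Log2 differences of the 4 channel genes tested (points, with standard errors; red, called; open, listed at 0 in both libraries of a sample type, so that the value depends on the pseudocount) above the distribution over all genes tested (bars), for EC-RNA minus ref-RNA and mock-RNA minus ref-RNA. The outermost bars also hold more extreme genes; all 4 genes lie within the bulk of the genes tested, whose medians are -2.59 and -3.19.

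The DEG/ENaC family was described as a whole. Of its 30 genes, ppk, ppk26 and rpk included, 7 and 14 were above 0 in the 5EUd libraries, 2 in each 5EC library and 0 in each mock library, and 16 were listed at 0 in all 6 libraries. Over all genes, 69.8% and 72.8% were above 0 in the 5EUd libraries, 33.4% and 35.2% in the 5EC libraries, and 15.3% and 12.7% in the mock libraries. The summed level of the 30 genes was 33.3 and 38.3 TPM in ref-RNA and 1.84 and 0.245 TPM in EC-RNA. Of the 8 whose ref-RNA mean reached 1 TPM, all below 10 TPM, none reached 1 TPM in a 5EC library. Among all genes with a ref-RNA mean from 1 to 10 TPM, only 4.9% and 7.7% did. Both EC-RNA values lay below both ref-RNA values for all 6 tested, as for 69.1% of all genes tested, and ppk, ppk6, ppk17 and ppk29 were called lower, as 56% of all genes were. All 6 passed the filter only through their 5EUd values, so the filter itself left no other direction open to them. The genes ppk19 and ppk27 did not pass it. The gene ppk17 was at 6.42 and 6.20 TPM in ref-RNA and ppk6 at 9.06 and 2.91 TPM, and both were listed at 0 elsewhere. Only ppk19, at 0.419 and 0.154 TPM, was above 0 in both 5EC libraries, and ppk27 was at 1.42 TPM in 5EC replicate 1.

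The wider TRP family of 16 genes held 2 that reached 1 TPM in EC-RNA, both in replicate 2 alone. Trpm, a channel of zinc and magnesium transport, was at 9.42 and 10.9 TPM in ref-RNA, 0.507 and 51.9 TPM in EC-RNA, and 3.50 TPM and 0 in mock-RNA. Trpml, a lysosomal channel, was at 11.7 and 11.9 TPM in ref-RNA, 0.293 and 29.6 TPM in EC-RNA, and 2.02 TPM and 0 in mock-RNA. Neither was called against ref-RNA in EC-RNA. Of 5 TRP genes tested against ref-RNA, pain and pyx (pyrexia) were called lower in EC-RNA, where 56% of all genes were. Both passed the filter only through their 5EUd values, so they could only lie lower in EC-RNA. The gene pyx was at 4.56 and 4.39 TPM in ref-RNA and listed at 0 in both 5EC libraries, but mock replicate 2 held it at 5.60 TPM.

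Of 20 genes of mechanosensory or nociceptive function outside these families, several had high values in 5EC replicate 2. In all, 13 and 14 were at 1 TPM or more in the 5EUd libraries, 4 and 10 in the 5EC libraries, and 4 and 5 in the mock libraries. Cirl, a latrophilin receptor that tunes mechanosensation, was the only one with both 5EC values above both ref-RNA values, at 93.6 and 101 TPM against 60.4 and 49.7 TPM, an arrangement of 3.16% of all genes tested, and it was at 0 and 6.18 TPM in mock-RNA. It was not called against ref-RNA (adjusted p = 0.581) or against mock-RNA (adjusted p = 0.252). The gene subdued, an anoctamin of thermal nociception, was at 152 and 134 TPM in ref-RNA and 2.63 and 124 TPM in EC-RNA. The potassium channel gene slo was at 36.9 and 33.4 TPM in ref-RNA and 7.66 and 101 TPM in EC-RNA. CG11210, now named Tmem63, was at 28.9 and 22.6 TPM in ref-RNA, 1.26 and 149 TPM in EC-RNA and 0 in mock-RNA. Against ref-RNA, none of the 12 genes of this list that were tested was called higher (0.199% of all genes tested), and Ank2 and stj were called lower (56%).

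Across the members and these lists, 28 genes had a ref-RNA mean that reached 1 TPM. In EC-RNA, 4 of the 28 reached 1 TPM in both replicates, 8 in replicate 2 alone, 0 in replicate 1 alone and 16 in neither. Among all 9716 genes with such a mean the shares were 14.3% in both, 11.3% in replicate 2 alone, 9.4% in replicate 1 alone and 65.1% in neither. Piezo, Ank2, ct, Ih, para, SK, Trpm and Trpml were the 8 that reached 1 TPM only in replicate 2. In replicate 1 all 8 were above 0, from 0.146 TPM for para to 0.806 TPM for Piezo. Of these, the 7 with several transcripts were led in 5EC replicate 2 by the transcript that led in 5EUd replicate 1 in 1 case, ct. Over all genes with several transcripts this held for 52.2% of 1869. The 7 genes have from 4 (ct) to 60 (para) transcripts, and the part of this number was not tested.

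**Figure D5:**
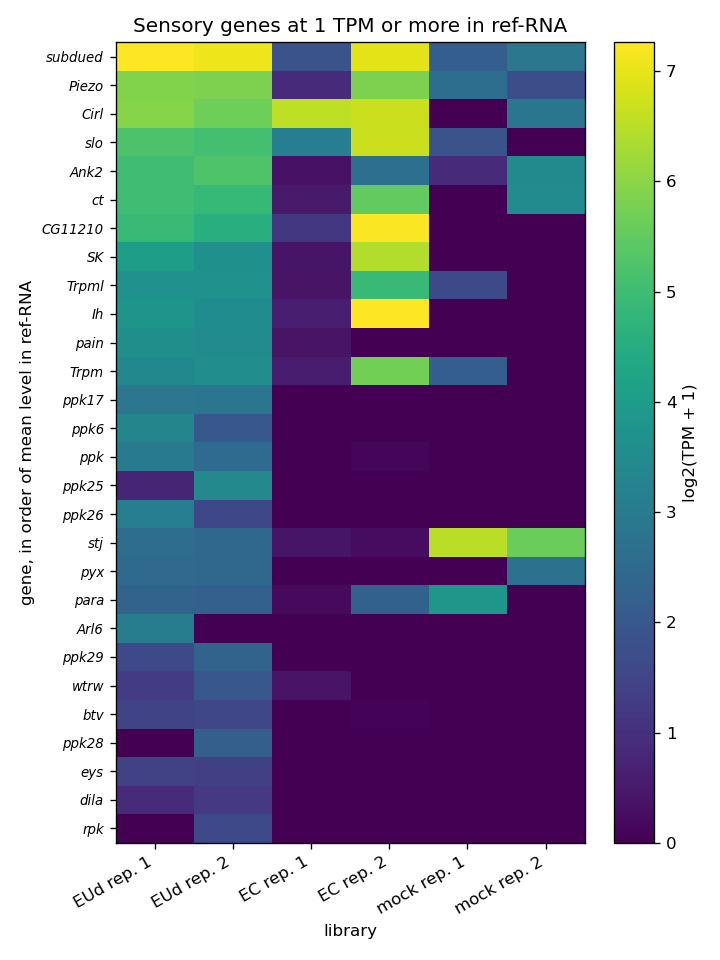
Level of the 28 sensory genes whose ref-RNA mean reached 1 TPM (rows, in order of that mean) in each library (columns), as log2(TPM + 1). The 5EC replicate 1 column is dark except for Cirl and slo and, faintly, subdued and CG11210, whereas 12 rows are lit in 5EC replicate 2, none of them a DEG/ENaC gene.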

How the data were processed

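The authors trimmed reads with Trimmomatic and pseudo-aligned them to the BDGP6 transcripts with kallisto, and deposited TPM per transcript and library. Versions are not given in the sources used here. The columns sum to between 975731 and 1000000 TPM. Blanks (132111 cells) were read as 0 and transcripts were summed by gene name. Members and lists were chosen with earlier results of these data known, and the design set limma for TPM. Features averaging 1 TPM or more in the 4 libraries of a comparison were tested on log2(TPM + 1) with limma 3.58.1 in R 4.3.3 (trended spread, no replicate term), and a call required, over all features tested, an adjusted p-value (Benjamini-Hochberg) under 0.05 and a difference of at least 2-fold. The fit was run on simulated data in which both groups had the same spread, unlike the 5EC and 5EUd libraries. That run does not show how the fit behaves with unequal spread. Python 3.11.15 with pandas 2.3.3 and NumPy 2.4.6 gave the other values. Positions and exons come from BDGP6.54, Ensembl release 115, which holds all 33 member transcripts. Whether kallisto used strand is not given in the sources used here. Named were all members, their transcripts that reached 1 TPM in any library, the 3 genes nearest in Euclidean distance to each member at 1 TPM or more in at least 4 libraries, and list genes that were called or above 1 TPM in both 5EC libraries. Others were chosen after their values were seen. Alternatives were no filter, pseudocounts of 0.1 and 10, quantile normalization, median-of-ratios scaling, a fit of all 3 sample types, the replicate number as a block, and each library left out in turn. The read subset that the study drew from ref-RNA was not used here.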

Additional observations from a re-analysis of the deposited data

How the results depend on the processing

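With 2 libraries per sample type, limma's p-values rest on little replication, and leaving a library out leaves a sample type with a lone library that is assumed to vary like the others. Counts of calls depended on the scaling. Between EC-RNA and ref-RNA, 5098 genes and 6558 transcripts were called, and 2771 genes and 3465 transcripts with a pseudocount of 10, 0 genes with quantile normalization (2675 at an unadjusted p-value below 0.05) and 2609 genes with median-of-ratios scaling. The median of the channel genes moved from -2.60 to -5.36, -0.84, -0.65 and -1.34 with pseudocounts of 0.1 and 10, quantile normalization and median-of-ratios scaling, and that between mock-RNA and ref-RNA from -3.15 to -5.59, -0.86, -0.29 and -1.63. The median of all genes moved from -2.59 to -0.57 with quantile normalization and to -1.16 with median-of-ratios scaling. Between EC-RNA and mock-RNA, limma called 15 genes and 0 transcripts (500 at an unadjusted p-value below 0.05). The gene count was 5 and 25 with pseudocounts of 0.1 and 10, 38 with quantile normalization, 0 with median-of-ratios scaling (411 at an unadjusted p-value below 0.05) and 326 with all 3 sample types in a fit. The transcript count was 5 with a pseudocount of 10. Leaving out a replicate gave 0 to 1000 genes and 0 to 1609 transcripts, with 0 without either mock replicate. Between mock-RNA and ref-RNA, 6120 genes and 7796 transcripts were called, and 2201 genes with quantile normalization, 4773 transcripts with a pseudocount of 10, and 4649 to 9182 transcripts without a replicate. The other 35 totals were within 1.5 times, but the calls in the higher direction moved more. Without 5EC replicate 1 or 2, higher calls in EC-RNA against ref-RNA went, for genes, from 18 to 969 and 695, and, for transcripts, from 86 to 756 and 675.

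With the replicate number as a block, EC-RNA and mock-RNA gave 194 genes and 81 transcripts, no channel gene changed its call, and FBtr0335183 of Piezo lost its mock-RNA call. Deviations of same-numbered libraries were nearly uncorrelated over genes (correlations from 0.001 to 0.011). This does not show whether such libraries shared a batch, which was not tested. The direction of Piezo turned between EC-RNA and ref-RNA with median-of-ratios scaling, at 0.20, and between EC-RNA and mock-RNA with quantile normalization, at -1.13, and without 5EC replicate 2, at -1.33, against 3.65 without 5EC replicate 1. FBtr0335183 turned between EC-RNA and mock-RNA with a pseudocount of 0.1, at -0.64, and without 5EC replicate 2, at -2.18, against 3.55 without 5EC replicate 1. The causes were not tested.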

Other observations

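Of the sensory genes outside the channel set, a few were high in libraries other than ref-RNA. The gene stj (straightjacket), an auxiliary calcium channel subunit with a role in thermal nociception, was at 89.4 and 48.8 TPM in mock-RNA, 5.05 and 4.34 TPM in ref-RNA, and 0.326 and 0.191 TPM in EC-RNA. It was called higher in mock-RNA than in ref-RNA, by 3.56 on the log2(TPM + 1) scale (standard error 0.47, limma adjusted p = 0.00937), and lower in EC-RNA than in ref-RNA, by a log2 difference of -2.18 (adjusted p = 0.00442). Between EC-RNA and mock-RNA it was not called (adjusted p = 0.243). Ih, which encodes a channel opened by hyperpolarization, was at 152 TPM in 5EC replicate 2, 0.513 TPM in replicate 1, 12.6 and 10.6 TPM in ref-RNA, and listed at 0 in mock-RNA. Its leading transcript was FBtr0290292 in 5EC replicate 2 and FBtr0308835 in both 5EUd libraries.

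Pzl, a Piezo-like gene, was at 0.178 TPM in 5EC replicate 1 and 67.6 TPM in 5EC replicate 2, at 0.927 and 0.0211 TPM in ref-RNA and listed at 0 in mock-RNA, and it was not called against ref-RNA (adjusted p = 0.415). The muscle list summed to 42414 and 42302 TPM in EC-RNA, 87720 and 79196 TPM in ref-RNA, and 16761 and 36477 TPM in mock-RNA. The epidermis and cuticle list summed to 26254 and 39107, 17277 and 14179, and 4194 and 146520 TPM in the same order. Lcp4 alone gave 146060 TPM of the sum in mock replicate 2. Neuronal genes summed to 211 and 686 TPM in EC-RNA, 285 and 255 TPM in ref-RNA, and 1129 and 144 TPM in mock-RNA, so the mock values enclosed those of the other sample types. Rdl alone gave 912 TPM of the sum in mock replicate 1, and 2.51 TPM in mock replicate 2. Fat body genes summed to 9390 and 13903 TPM in EC-RNA, 12496 and 46211 TPM in ref-RNA, and 43.5 and 255 TPM in mock-RNA. Glial genes stood at 248 and 3.89, 107 and 106, and 6.64 and 0 TPM, tracheal genes at 572 and 2186, 1208 and 1130, and 196 and 374 TPM, and hemocyte genes at 94.6 and 141, 225 and 238, and 27.8 and 14.6 TPM, each in EC-RNA, ref-RNA and mock-RNA. Nearly all of the glial sum in 5EC replicate 1 came from nrv2 at 179 TPM and Gli at 68.1 TPM, neither of them called against ref-RNA. Eaat1, loco and moody were called lower in EC-RNA than in ref-RNA, as 56% of all genes tested were. The part of the listed cell types in the channel values was not tested.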
